A study of Mus musculus with 115 samples.

Results

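The 9 genes described here encode enzymes of the tricarboxylic acid (TCA) cycle: Cs, Idh2, Idh3a, Idh3b, Idh3g, Ogdh, Sucla2, Fh1 and Mdh2. They were taken by symbol from an amplicon panel of 23930 targets on which each of them has 1 amplicon, so they are 9 of 23930. All 9 passed the filter on low counts that left 15403 amplicons for testing. The cycle runs in the mitochondrial matrix and oxidises the acetyl groups that fatty acids and pyruvate supply. Its dehydrogenases pass electrons as NADH to the respiratory chain, and the heart draws most of its ATP from that flow. ATP made in the matrix leaves in exchange for ADP through the adenine nucleotide translocator, whose main form in heart and skeletal muscle is Ant1, encoded by Slc25a4.

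RNA was taken from hearts of C57BL/6JEiJ mice of 3 genotypes. Wild type hearts had no named change, the knockout hearts lacked Ant1 (ANT1 -/-), and the knockout ND6 hearts lacked Ant1 and carried ND6 P25L, a change in a subunit of respiratory complex I that mitochondrial DNA encodes. The mice had received 2.5e+11 vector genomes of a virus by injection at the pericardium. It was AAV2/9Des-Gfp (the control vector) or AAV2/9Des-Gfp-mAnt1 (the Ant1 vector). By these treatment labels no group was left uninjected. The titles carry the code NI in the control vector groups and IN in the Ant1 vector groups, and the vector names used here are those of the treatment labels. The series names 1, 3, 6, 9 and 12 months after injection but gives no time, age or sex for a single heart. Library titles carry a number that, within a genotype and title code, was taken to name the animal, and 22 hearts resulted. Numbers 20, 21 and 22 occur both in knockout hearts with the Ant1 vector and in knockout ND6 hearts with the control vector. They were read as different animals. The control vector groups held 4 wild type, 3 knockout and 3 knockout ND6 hearts, and the Ant1 vector groups held 3 wild type, 4 knockout and 3 knockout ND6 hearts. Knockout ND6 hearts 61 and 91, whose treatment label names the control vector and whose title code matches the Ant1 vector, formed a group of 2 and entered no comparison.

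The deposited values were read counts. Each heart had 2 to 8 repeat libraries, which were summed to 16827518 to 54779297 reads per heart and given as CPM, counts scaled to a common library size. As a check of the labels, Slc25a4 lay between 8464 and 11380.4 CPM in the wild type hearts of both vectors and between 0.219 and 2.03 CPM in the knockout and knockout ND6 hearts with the control vector. In knockout hearts with the Ant1 vector it reached 174 to 241 CPM. In knockout ND6 hearts with that vector it was 66.7, 0.732 and 55.6 CPM, so heart 8, labelled with the Ant1 vector, lay at the level of hearts given the control vector. Hearts 61 and 91, with conflicting labels, were read at 169 and 151 CPM. Those values lie far above the knockout and knockout ND6 hearts with the control vector. The 11 cardiomyocyte markers summed to 95064 to 122118 CPM in every heart, with none at 0, and 8 fibroblast markers to 2008 to 3144 CPM. All 22 hearts carried Y-linked Ddx3y (3333 to 10939 reads) and little Xist (0 to 59 reads).

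The 14 count tables hold 8 libraries each, and none holds hearts of both vectors among the 20 in the comparisons. Hearts 61 and 91 share tables with control vector hearts. The hearts fall into 6 sets, A to F, each sharing its own tables. Vector and table therefore cannot be told apart, and genotype comparisons within a vector can be repeated inside a set. Hearts 27 (knockout) and 37 (knockout ND6), both with the Ant1 vector, stood apart. Of the amplicons with at least 10 CPM, 28.6% and 16.4% differed by more than 1.5-fold between their own repeat libraries in 2 tables, against 0% to 3.12% in the other 19 hearts with libraries in more than 1 table.

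Cs (citrate synthase, chr10:128337734-128362479, plus strand, coordinates from GENCODE M21 on GRCm38) opens the cycle by joining acetyl-CoA to oxaloacetate. Its level was among the steadiest of the 9, at 1409.6 to 1751 CPM (median 1564) over the 22 hearts. Idh2 (chr7:80094846-80115392, minus strand) encodes the NADP-dependent isocitrate dehydrogenase of the matrix, which supplies NADPH. Idh2 had the widest range relative to its lowest value, 1.76-fold, at 2005 to 3529 CPM (median 2824).

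The NAD-dependent isocitrate dehydrogenase, the enzyme of the cycle itself, is built from the products of 3 genes. Idh3a (chr9:54586334-54604661, plus strand) encodes the catalytic subunit and was read at 557 to 773 CPM (median 616). Idh3b (chr2:130279309-130284547, minus strand) and Idh3g (chrX:73778963-73786897, minus strand) encode its partners, the latter with a regulatory role. Idh3b ranged over 659 to 877 CPM (median 756) and Idh3g over 1102 to 1725 CPM (median 1317). Ogdh (chr11:6291633-6356642, plus strand) encodes the first component, E1, of the 2-oxoglutarate dehydrogenase complex, a step at which calcium and NADH regulate the cycle, and ranged over 2598 to 3553 CPM (median 3154).

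Sucla2 (chr14:73525319-73596142, plus strand) encodes the beta subunit that makes succinyl-CoA ligase produce ATP, and ranged over 584 to 749.7 CPM (median 666). Fh1 (chr1:175600374-175625635, minus strand) encodes fumarate hydratase, which turns fumarate into malate, and ranged over 430.3 to 720.4 CPM (median 525). Mdh2 (chr5:135778480-135790398, plus strand) encodes the matrix malate dehydrogenase that returns malate to oxaloacetate, and ranged over 942 to 1280.3 CPM (median 1123). Each gene was read by 1 amplicon and amplicons differ in efficiency, so these levels are compared between hearts and not between genes. The Cs-like gene Csl gave 0 to 10 reads per heart against at least 25558 for Cs.

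The spread of the 9 genes between hearts of a group (SD of log2 CPM, pooled over groups) was smallest for Idh3a, 0.067, and largest for Idh2, 0.19. The 9 did not move as a block: over 36 pairs of genes the median Pearson r across the 22 hearts was 0.23, from -0.38 for Idh3g with Mdh2 to 0.59 for Idh3a with Ogdh, and 26 pairs lay above 0. These correlations share libraries and groups and are given as a description. The amplicons most like the mean standardised level of the 9 were Ndufa4 (r = 0.88), Atp5a1 (0.86), Cox5b (0.85), Uqcrfs1 (0.85) and Chchd3 (0.84), again over 22 hearts. They were picked as the highest r among all tested amplicons outside the 9, so high values come with the picking, and none was tested.

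**Figure D1:**
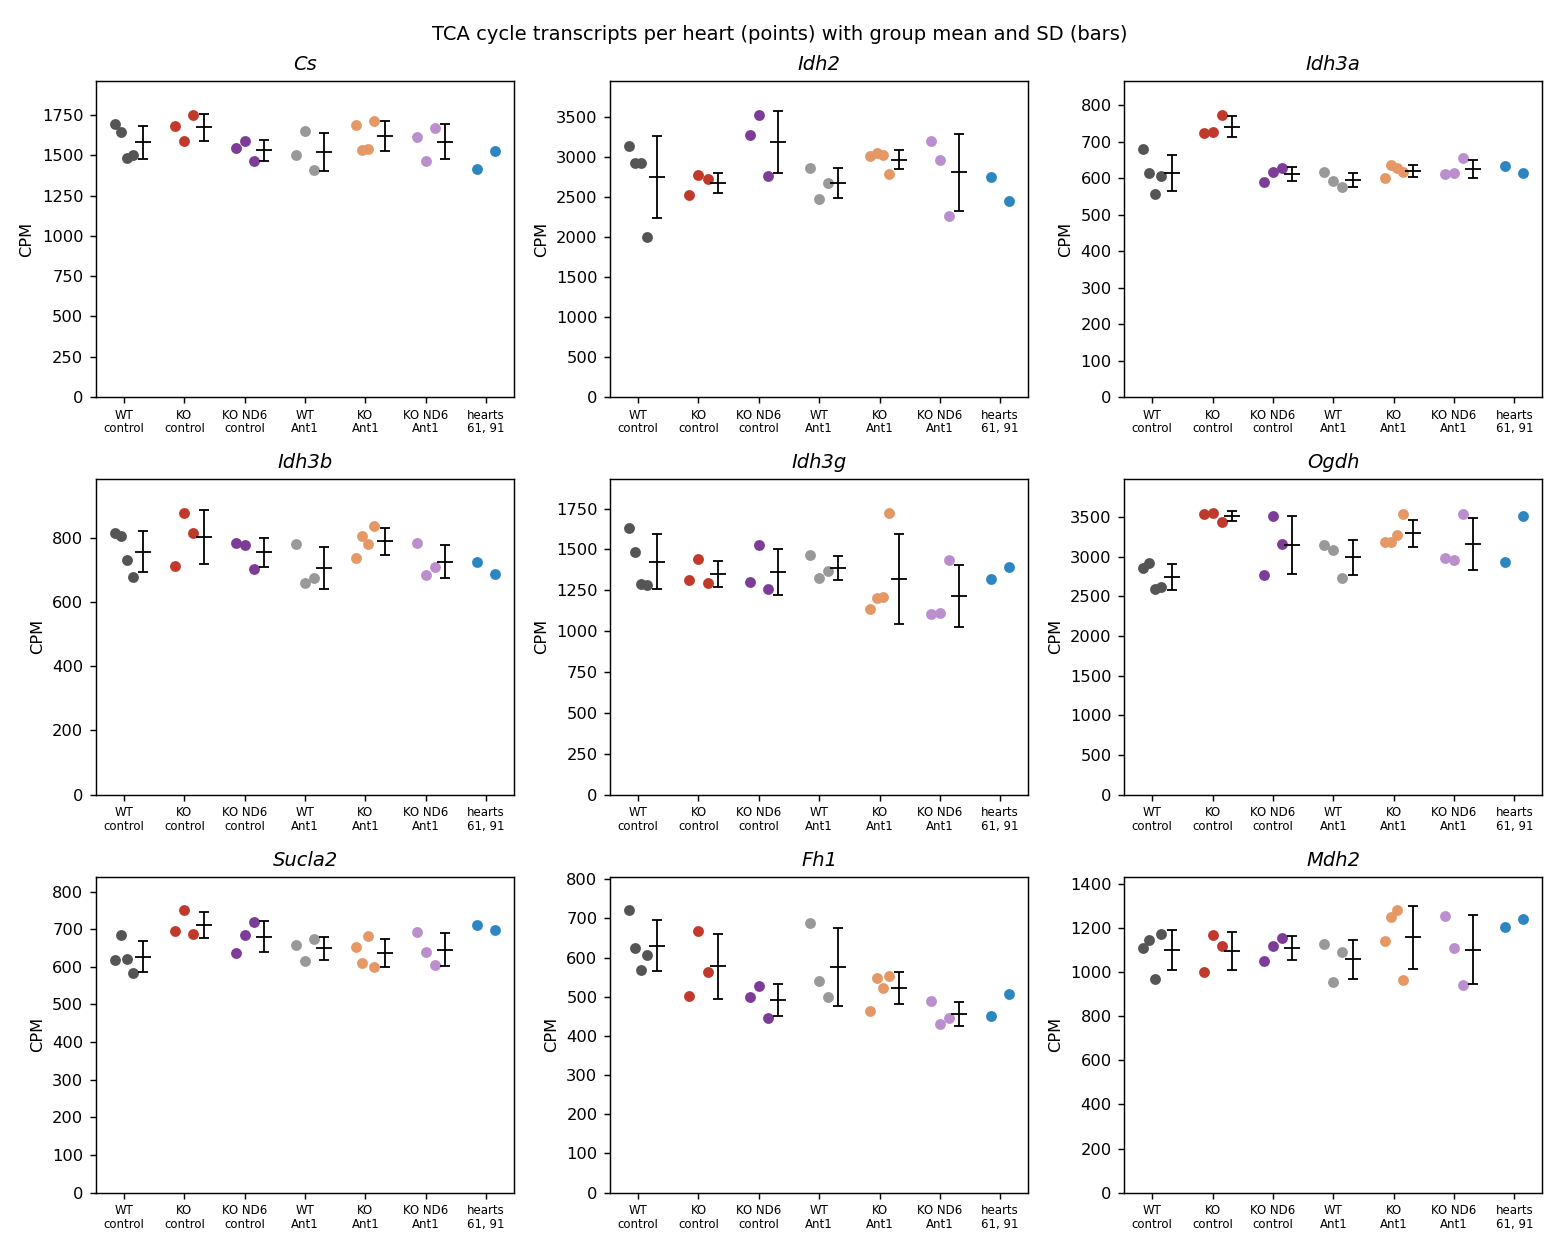
CPM (linear axis from 0) of the 9 TCA cycle genes in every heart, by genotype and vector, with the group mean and SD drawn beside the points; hearts 61 and 91 have no mean. The 3 knockout hearts with the control vector (red) are the 3 highest of 22 for Idh3a, and all knockout ND6 hearts lie at or under 527 CPM for Fh1. Some hearts of the other genotypes lie under that value too, among them wild type heart 83 (499 CPM) and knockout heart 35 (503 CPM).

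The first question was what loss of Ant1 does under the control vector. In knockout hearts 2 of the 9 genes rose and none fell, against 14.4% of all tested amplicons that passed the threshold (8.19% higher). The threshold throughout was an adjusted p of 0.05 in edgeR's quasi-likelihood test over 15403 amplicons. The genes that rose were Ogdh and Idh3a, which encode the dehydrogenase subunits of 2 successive oxidative decarboxylations. The median log2 change of the 9 was 0.081, and that of all amplicons -0.026.

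Ogdh was read at 3540.1, 3553 and 3439 CPM in knockout hearts 35, 36 and 38. In wild type hearts 23, 24, 25 and 70 it was 2862, 2915, 2598 and 2612 CPM. The groups did not overlap, and the lowest knockout heart lay above the highest wild type heart. The knockout mean was 3510.5 ± 62.5 CPM (SD, n = 3). The wild type mean was 2747 ± 165.03 CPM (SD, n = 4), a 1.28-fold difference (log2 change 0.35 ± 0.086 (SE), adjusted p = 0.0079). Inside table set A, the one that holds wild type and knockout hearts under this vector, heart 35 exceeded hearts 23 to 25 by 0.34 on the log2 scale. The call held under every alternative run for this comparison, including each heart left out.

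Idh3a was read at 723, 725 and 773 CPM in knockout hearts 35, 36 and 38. In the 4 wild type hearts it was 679, 614, 557 and 605 CPM. Again the groups did not overlap, and the knockout values were the 3 highest of all 22 hearts. The difference was 1.21-fold (log2 change 0.27 ± 0.066 (SE), adjusted p = 0.0079), and 0.23 inside set A. The call was lost without knockout heart 38 (adjusted p = 0.053), with only these groups in the fit (0.055) and with 2 libraries per heart (0.11), while the log2 change stayed between 0.24 and 0.30 in these settings.

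The other components of the 2-oxoglutarate dehydrogenase complex rose beside Ogdh. Dld, the E3 dihydrolipoyl dehydrogenase shared with other 2-oxoacid dehydrogenases, was read at 1769, 1789 and 1681 CPM in the knockout and 1571, 1508, 1402 and 1285 CPM in the wild type hearts. Dlst, the E2 succinyltransferase, was read at 692, 723 and 765 and 653, 651, 594 and 551 CPM. For both genes the groups did not overlap and the knockout hearts were the 3 highest of 22. The differences were 1.21-fold for Dld (log2 change 0.28 ± 0.068 (SE), adjusted p = 0.0085) and 1.19-fold for Dlst (log2 change 0.25 ± 0.069 (SE), adjusted p = 0.019). Inside set A they were 0.25 and 0.13 on the log2 scale. Dld kept its call under all 15 alternatives and Dlst under 9 of 15, Dlst losing it without knockout heart 38 or wild type heart 25 or 70 among others.

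Because the 3 components rose in the same hearts, their promoter windows are shown, 250 bases before to 50 after the annotated start, from RefSeq on GRCm38.p6. RefSeq lists 6 starts for Ogdh, and the fourth is printed because it alone holds one of the motifs searched. The windows are Ogdh at chr11:6291920-6292219 (plus strand), Dlst at chr12:85110583-85110882 (plus strand) and Dld at chr12:31351422-31351721 (minus strand). Capitals mark the one match found in each: the site of the oestrogen-related receptors (ERR) in Ogdh (AAGGTCA, here as TGACCTT on the other strand), the ETS core bound by GABP in Dlst (CCGGAAG, here as CTTCCGG) and the NRF1 site in Dld (GCGC and TGCGC with any 1 base between, here on the other strand).
Ogdh: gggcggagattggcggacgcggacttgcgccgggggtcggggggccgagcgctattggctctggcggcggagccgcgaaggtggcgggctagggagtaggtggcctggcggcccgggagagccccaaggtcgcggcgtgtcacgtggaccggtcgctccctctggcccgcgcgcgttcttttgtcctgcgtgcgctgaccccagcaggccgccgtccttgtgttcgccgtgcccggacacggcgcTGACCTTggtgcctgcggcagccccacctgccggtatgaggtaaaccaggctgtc
Dlst: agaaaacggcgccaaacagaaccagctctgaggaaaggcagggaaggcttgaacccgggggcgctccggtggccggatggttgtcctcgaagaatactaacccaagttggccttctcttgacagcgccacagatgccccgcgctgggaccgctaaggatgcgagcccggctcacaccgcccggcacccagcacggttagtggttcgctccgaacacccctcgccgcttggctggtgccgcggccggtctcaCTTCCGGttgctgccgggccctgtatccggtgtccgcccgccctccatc
Dld: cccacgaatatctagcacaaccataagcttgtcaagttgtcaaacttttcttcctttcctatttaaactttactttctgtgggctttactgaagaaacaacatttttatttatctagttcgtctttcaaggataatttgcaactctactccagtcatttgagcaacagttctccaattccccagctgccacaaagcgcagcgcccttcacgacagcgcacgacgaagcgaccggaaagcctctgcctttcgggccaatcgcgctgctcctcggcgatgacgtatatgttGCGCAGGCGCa
Both strands were searched, and no match overlapped another in these windows. Of 32851 promoter windows of the same length, 4.72% held the ERR site, 8.86% the ETS core, 4.60% the NRF1 site and 2.75% the YY1 motif (AAGATGGC). These shares are for 1 motif in 1 window, while Ogdh had 6 windows searched for every motif. No motif was found in all 3 windows. Of the 9 genes 8 were in the promoter table, all but Idh3a. Besides Ogdh, the NRF1 site was found in Sucla2, the ETS core in Idh3b and Idh3g, and the YY1 motif in Idh3g. These are matches of letters and not measured binding.

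Sucla2, which makes ATP directly at the step after the complex, was 695, 749.7 and 688 CPM in the knockout hearts and 619, 684, 621 and 584 CPM in the wild type hearts. These groups did not overlap either, but the difference did not pass the threshold (log2 change 0.18 ± 0.073 (SE), adjusted p = 0.10). With it, 3 of the 9 genes had groups that did not overlap, against 26.7% of all amplicons. The remaining 6 genes lay between -0.12 (Fh1) and 0.083 (Idh3b) on the log2 scale, with overlapping groups. Their 95% intervals reached from -0.36 to 0.26. Of the catalytic and partner subunits of one enzyme, Idh3a passed the threshold and Idh3b (0.083, adjusted p = 0.57) and Idh3g (-0.077, 0.74) did not, and the difference between the subunits was not tested.

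Around the cycle, 2 of 9 other TCA cycle enzymes on the panel rose (Dld and Dlst) and none fell, with a median log2 change of 0.093. Of 12 genes of pyruvate entry 4 rose, against 8.19% of all amplicons, and none fell. They were Pdhb, the E1 beta subunit of pyruvate dehydrogenase (1.32-fold, adjusted p = 0.0031), Pdhx, its E3-binding protein (1.70-fold, 0.00019), Dlat, its E2 component (1.22-fold, 0.031), and Pdp2, a phosphatase that activates it (1.38-fold, 0.025). The calls held under 15 of 15 alternatives for Pdhb, 15 of 15 for Pdhx, 8 of 15 for Dlat and 9 of 15 for Pdp2. Among 11 cytosolic counterparts and shuttle genes 3 rose: Got1, the cytosolic aspartate aminotransferase of the malate-aspartate shuttle (1.52-fold, 6.3e-05), the aspartate-glutamate carrier Slc25a13 (1.43-fold, 0.00013) and the cytosolic isocitrate dehydrogenase Idh1 (1.41-fold, 0.00067). None of 12 anaplerotic enzymes passed the threshold in edgeR, where 1 had an unadjusted p under 0.05 and DESeq2 called 0.

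Of 12 regulators 3 rose: the nuclear receptor Esrrg (1.35-fold, 0.0015), the matrix deacylase Sirt5 (1.49-fold, 0.0034) and the mitochondrial DNA packaging factor Tfam (1.35-fold, 0.0074). Of 9 genes often used as markers of mitochondrial amount, 2 rose: Tomm22 of the outer membrane import complex (1.52-fold, 0.00054) and the chaperone Hspa9 (1.18-fold, 0.031). Fibroblast markers moved with the same groups: 5 of 8 fell, against 6.23% of all amplicons, with a median log2 change of -0.45. They summed to 2008 to 2411 CPM in the knockout and 2962 to 3144 CPM in the wild type hearts, and none was at 0. Of 11 cardiomyocyte markers 2 rose, Actn2 (1.23-fold, 0.023) and Ckm (1.24-fold, 0.032), and none fell, with a median of 0.063. Of 6 endothelial markers 1 rose, Cdh5 (1.24-fold, 0.029), while the median log2 change of the list was -0.12. The endothelial sums overlapped (431 to 450.2 CPM and 437 to 467 CPM). The part of cell mixture in the rise of Ogdh and Idh3a was not tested, and in RNA of whole tissue more cells of a type cannot be told apart from more RNA per cell.

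**Figure D2:**
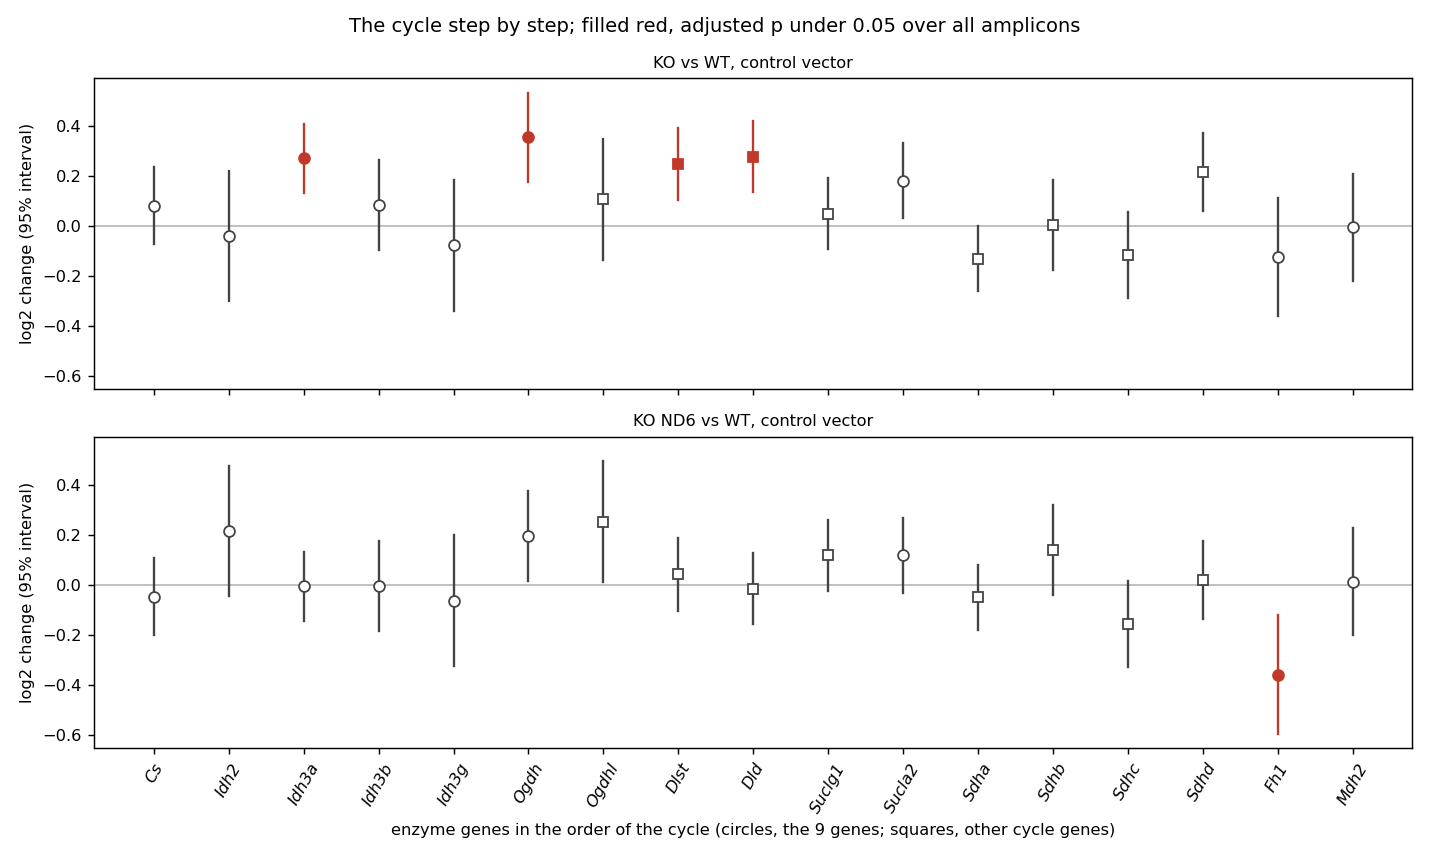
Log2 change with 95% interval for 17 TCA cycle genes in the order of the cycle, knockout against wild type (upper) and knockout ND6 against wild type (lower), control vector; circles are the 9 genes, squares other enzymes, and filled red marks an adjusted p under 0.05. In the knockout hearts the genes that passed are Idh3a, Ogdh, Dlst and Dld, in the middle of the cycle, and in the knockout ND6 hearts Fh1 alone.

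When the ND6 change was present as well, Fh1 fell and none of the 9 genes rose. With 1 of 9 called, the share stands beside 12.7% of all amplicons (5.97% lower). Fh1 was 501, 527 and 446 CPM in knockout ND6 hearts 20, 21 and 22 and 720.4, 625, 567 and 608 CPM in wild type hearts 23, 24, 25 and 70. No knockout ND6 heart reached the lowest wild type heart. The wild type mean was 630.1 ± 64.9 CPM (SD, n = 4). The knockout ND6 mean was 491 ± 41.3 CPM (SD, n = 3), 1.28-fold lower (log2 change -0.36 ± 0.11 (SE), adjusted p = 0.042). Inside set C, heart 22 lay -0.45 from wild type heart 70 on the log2 scale.

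The Fh1 call was close to the threshold. It was lost without wild type heart 23 (adjusted p = 0.12) or 24 (0.060), without knockout ND6 heart 20 (0.093), 21 (0.055) or 22 (0.19), and with 2 libraries per heart (0.060). With the library table as a covariate in limma, the change was -0.54 (adjusted p = 3.8e-06). That fit also called Idh2 higher (0.26, 0.0030). Here and wherever the table covariate is used below, it counts repeat libraries largely as separate units (within-heart correlation 0.18). The p-values from it can be too low.

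Fh1 was the one gene of the 9 called here, and the only one whose groups did not overlap, against 26.3% of all amplicons. Ogdh was 2767, 3505 and 3160.2 CPM in the knockout ND6 hearts, from within the wild type range up to the knockout range (log2 change 0.20 ± 0.086 (SE), adjusted p = 0.15). Idh3a was 589, 616 and 628 CPM, inside the wild type range (log2 change -0.0062, 95% interval -0.14 to 0.13). Idh2 was 3281, 3529 and 2769 CPM against 3144, 2927, 2929 and 2005 CPM in wild type, where heart 70 was the lowest of all 22 (log2 change 0.21 ± 0.12 (SE), adjusted p = 0.29). The median log2 change of the 9 was -0.0050, against -0.010 for all amplicons.

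Of the 9 other TCA cycle enzymes none passed the threshold in edgeR, while 1 had an unadjusted p under 0.05 and DESeq2 called 0. Pyruvate entry again had calls upward, 3 of 12 against 6.71% of all amplicons: Pdhx (1.70-fold, 0.00024), Pdhb (1.35-fold, 0.0023) and Dlat (1.23-fold, 0.025). Pdhx and Pdhb held under all 17 alternatives and Dlat under 10 of 17. In the anaplerotic list Me2, a mitochondrial malic enzyme, rose 1.58-fold (0.0083) and Gpt2, the mitochondrial alanine aminotransferase, fell 1.49-fold (0.049), calls that held under 16 of 17 and 10 of 17 alternatives. Of the 8 fibroblast markers 4 fell, their sum lying at 2294 to 2472 CPM in these hearts with none at 0, and of 6 macrophage markers tested 2 fell, the list of 7 summing to 99.7 to 129 CPM against 145 to 187 CPM. Ckm, muscle creatine kinase, which is in both the cardiomyocyte and the skeletal muscle list, rose 1.56-fold (0.00011), from a mean of 472 to 738 CPM, and was the one call in each. The part of these cells in the Fh1 difference was not tested.

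Added to loss of Ant1, the ND6 change gave no call among the 9 in edgeR's quasi-likelihood test, with 1.06% of all amplicons called (0.539% higher). At an unadjusted p under 0.05 there was 1 gene, Idh3a, and DESeq2 called that 1 (adjusted p = 0.0057). Idh3a was 589, 616 and 628 CPM in the knockout ND6 and 723, 725 and 773 CPM in the knockout hearts, with no overlap. The fold was 1.21 in the direction of lower knockout ND6 (log2 change -0.28 ± 0.071 (SE), adjusted p = 0.060), and inside set B the difference was -0.31. Counting hearts 61 and 91 as control vector hearts gave -0.27 with an adjusted p of 0.018. Their Slc25a4 (169 and 151 CPM) was unlike that of the knockout ND6 hearts with the control vector (at most 0.851 CPM).

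Cs was the other gene without overlap, 2 of the 9 against 25.3% of all amplicons (log2 change -0.13 ± 0.079 (SE), adjusted p = 0.49). Dld, at 1361, 1532 and 1383 CPM, was 1.23-fold lower than in the knockout but missed the threshold (adjusted p = 0.053), with a value of -0.26 inside set B. Idh2 showed the largest positive value, 0.25 (95% interval -0.024 to 0.53, adjusted p = 0.40), and 0.31 inside set B. With the table covariate 3 of the 9 genes passed: Idh2 higher (0.39, 2.5e-08), and Idh3a (-0.29, 0.00050) and Fh1 (-0.24, 0.027) lower. That fit counts repeat libraries largely as separate units, and its p-values can be too low. In edgeR's test on hearts Fh1 did not pass (-0.24, adjusted p = 0.39), and its groups overlapped. Of the lists around the cycle, shuttle genes Got1 (1.46-fold, adjusted p = 0.0052) and Idh1 (1.31-fold, 0.049) fell, 2 of 11 against 0.519% of all amplicons. Got1 kept this call under all 16 alternatives and Idh1 under 6 of 16. No gene of the other metabolic lists passed in edgeR; of 9 other cycle enzymes 3 had an unadjusted p under 0.05 and DESeq2 called 1, and of 12 pyruvate entry genes 4 had an unadjusted p under 0.05 and DESeq2 called 1.

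**Figure D3:**
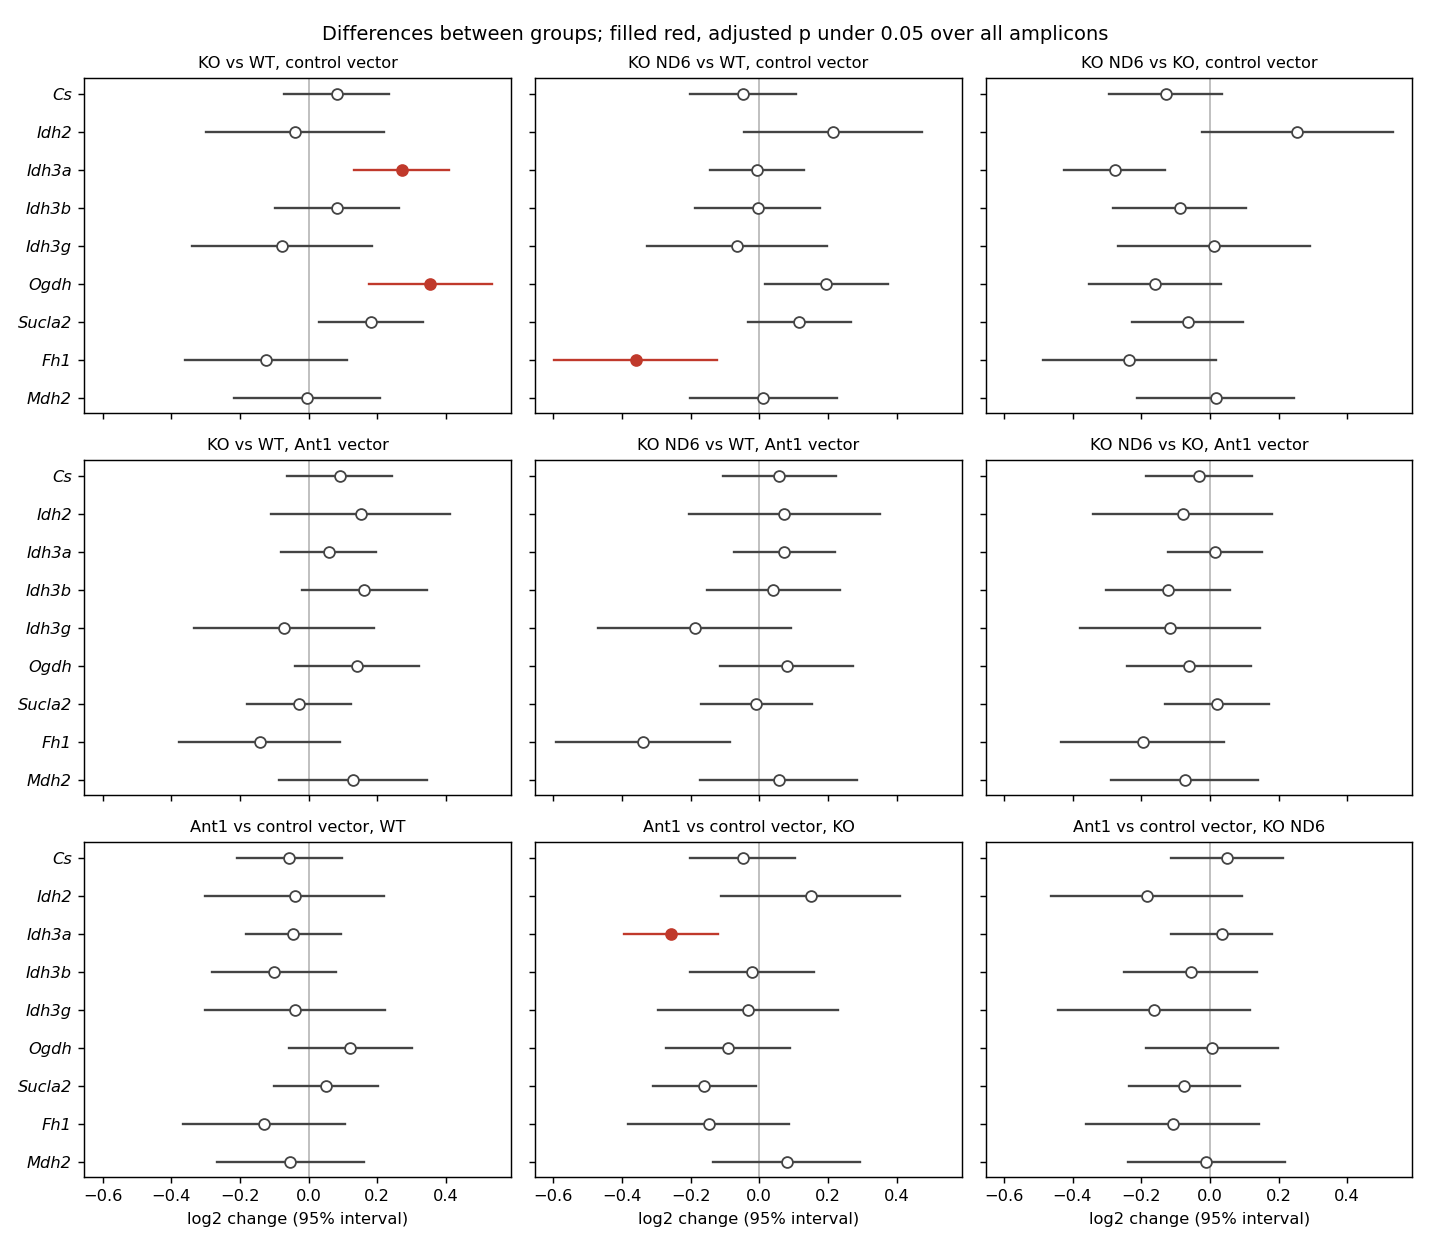
Log2 change with 95% interval for the 9 genes in 9 comparisons of genotype (upper rows) and vector (bottom row); filled red marks an adjusted p under 0.05 over all tested amplicons. The 4 filled points are Idh3a and Ogdh in knockout against wild type, Fh1 in knockout ND6 against wild type and Idh3a for the Ant1 vector in the knockout.

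Fh1 was the one gene of the 9 with the same sign in all 6 table sets, lower in the more altered genotype in each. The differences were -0.33 in set A (knockout 35 against wild type 23 to 25), -0.26 in set B (knockout ND6 20 and 21 against knockout 36 and 38) and -0.45 in set C (knockout ND6 22 against wild type 70). Under the Ant1 vector they were -0.30 in set D (knockout 20 against wild type 80, 81 and 83), -0.22 in set E (knockout ND6 5 and 8 against knockout 21 and 22) and -0.31 in set F (knockout ND6 37 against knockout 27). Hearts are not shared between sets, and each set holds 2 to 4 hearts of these genotypes. No test was run inside a set, and the share of all amplicons with the same sign in all 6 sets was not counted. In sets A and D the only knockout heart had the lowest Fh1 of its group. Heart 35 was at 503 CPM against 667 and 564 CPM, and heart 20 at 464 CPM against 549, 522 and 552 CPM. The values of these sets thus depend on which knockout heart shared tables with wild type hearts. The pooled knockout against wild type values were smaller and did not pass (-0.12, adjusted p = 0.51, control vector; -0.14, 0.48, Ant1 vector). With the table covariate the control vector value was -0.30 and passed (0.0058), and the Ant1 vector value was -0.28 (0.11).

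Mean Fh1 stood in the order wild type, knockout, knockout ND6 under both vectors. With the control vector the means were 630.1, 578 and 491 CPM, and neighbours in that order overlapped (knockout 503, 667 and 564 CPM). With the Ant1 vector they were 576, 522 and 456 CPM, and again neighbours overlapped. Knockout ND6 hearts 61 and 91 were read at 450.2 and 507 CPM, within the range of the other knockout ND6 hearts.

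**Figure D4:**
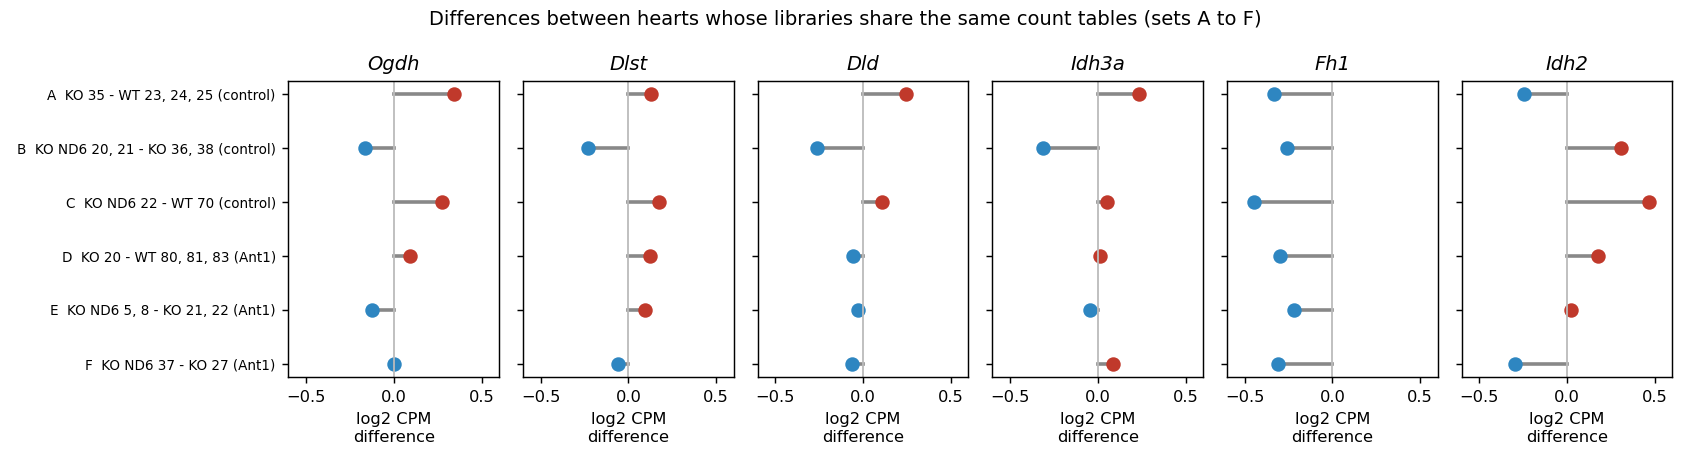
Differences in log2 CPM between hearts whose libraries share count tables, one row per set (A to C control vector, D to F Ant1 vector), for 4 of the 9 genes and for Dlst and Dld; red lies above 0 and blue below. Fh1 lies below 0 in all 6 sets (-0.45 to -0.22), while Idh3a, Ogdh, Dlst and Dld lie above 0 in set A and below 0 in set B.

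The Ant1 vector in knockout hearts went with lower Idh3a, the 1 gene of 9 called, against 5.47% of all amplicons (2.19% higher and 3.27% lower). Knockout hearts 20, 21, 22 and 27 with the Ant1 vector were read at 599, 635, 627 and 617 CPM, and knockout hearts 35, 36 and 38 with the control vector at 723, 725 and 773 CPM. The groups did not overlap, and the Ant1 vector hearts lay within the range of wild type hearts with the control vector (679, 614, 557 and 605 CPM). Idh3a fell 1.20-fold (log2 change -0.26 ± 0.066 (SE), adjusted p = 0.029). No table holds both groups, so the vector cannot be told apart from the tables here.

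This call too was close to the threshold. It was lost without control vector heart 35 (adjusted p = 0.057), 36 (0.066) or 38 (0.13), and without Ant1 vector heart 20 (0.069) or 22 (0.054). It was also lost with no filter on low counts (0.083) and with only these groups in the fit (0.092). It held without hearts 27 and 37 (0.026). With 2 libraries per heart the log2 change was -0.11 (0.64), a setting in which heart 27 was represented by libraries of 1 table with a mean of 828 CPM. With 2 libraries per heart and without hearts 27 and 37, an alternative chosen after seeing the data, it was -0.27 (0.042).

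Idh2, Idh3a and Sucla2 had groups that did not overlap in this comparison, 3 of 9 against 18.2% of all amplicons. The gap was narrow for Idh2, between Ant1 vector heart 27 (2787 CPM) and control vector heart 36 (2775 CPM). It was narrow for Sucla2 too, between Ant1 vector heart 22 (682 CPM) and control vector heart 38 (688 CPM). Sucla2 was 653, 611, 682 and 600.2 CPM with the Ant1 vector (log2 change -0.16 ± 0.073 (SE), adjusted p = 0.20), and Idh2 3017, 3052, 3025 and 2787 CPM against 2533, 2775 and 2724 CPM (log2 change 0.15 ± 0.13 (SE), adjusted p = 0.52). Ogdh, at 3179, 3189, 3271 and 3538 CPM, overlapped the control vector hearts through heart 27 (log2 change -0.092 ± 0.087 (SE), adjusted p = 0.58). Of the other cycle enzymes Dld fell 1.35-fold (0.0024, under all 16 alternatives), with 1274, 1293, 1326 and 1278 CPM against 1769, 1789 and 1681 CPM. Sdhd, a membrane anchor subunit of succinate dehydrogenase, fell 1.23-fold (0.024, held under 9 of 16 alternatives). Dlst did not pass (log2 change -0.22 ± 0.069 (SE), adjusted p = 0.062).

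Among shuttle genes Idh1 (1.44-fold, adjusted p = 0.0040) and Got1 (1.37-fold, 0.0063) fell, both under all 16 alternatives. In pyruvate entry Pdk1, a kinase that inhibits pyruvate dehydrogenase, rose 1.26-fold (0.026, 12 of 16 alternatives), and the activating phosphatases Pdp2 (1.54-fold, 0.013, 13 of 16) and Pdp1 (1.32-fold, 0.042, 7 of 16) fell. Of the genes used as markers of mitochondrial amount, Uqcrc2 of respiratory complex III (log2 change -0.59, 0.0083) and Hspa9 (1.27-fold, 0.011) fell. No regulator passed in edgeR, while 4 had an unadjusted p under 0.05 and DESeq2 called 2. One of 8 fibroblast markers, Gsn, rose (1.26-fold, 0.013), and the list summed to 2341 to 2692 CPM with the Ant1 vector against 2008 to 2411 CPM, with none at 0. Endothelial markers summed to 547 to 574 CPM against 431 to 450.2 CPM, without overlap, and 1 of 6 rose, Pecam1 (1.59-fold, 0.024). Of 11 cardiomyocyte markers Ckm (1.34-fold, 0.015) and Tnni3 (1.23-fold, 0.022) rose and Pln (1.61-fold, 0.0090) fell. The part of these cells in the Idh3a difference was not tested.

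In wild type hearts the Ant1 vector gave 0 calls among the 9 in edgeR, 0 at an unadjusted p under 0.05 and 0 in DESeq2, with 0.117% of all amplicons called (0.0519% higher and 0.0649% lower). The log2 changes lay between -0.13 (Fh1) and 0.12 (Ogdh), and the 95% intervals between -0.37 and 0.30. In knockout ND6 hearts the counts were likewise 0, 0 and 0, with 2.53% of all amplicons called (1.75% higher and 0.779% lower), and edgeR called 0 without heart 8 too. There the largest value was -0.18 for Idh2 (3197, 2968 and 2270.2 CPM in hearts 5, 8 and 37 against 3281, 3529 and 2769 CPM), and the intervals reached from -0.46 to 0.22. No gene of the 9 had groups without overlap in either comparison, against 10.5% and 24.9% of all amplicons.

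Whether the vector's effect differed between genotypes was tested as an interaction. For the knockout against wild type 0 of 9 genes passed in edgeR and in DESeq2, with 0.500% of all amplicons called, and 1 gene, Idh3a, had an unadjusted p under 0.05 (log2 change -0.21 ± 0.094 (SE), adjusted p = 0.29). For the knockout ND6 against wild type the counts were 0, 0 and 0, with 0.273% of all amplicons called. The fall of Idh3a with the Ant1 vector in the knockout is therefore not shown to differ from the wild type value of -0.045.

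Under the Ant1 vector none of the 9 genes passed between knockout and wild type in edgeR, with 9.89% of all amplicons called (4.53% lower), 0 genes at an unadjusted p under 0.05 and 0 in DESeq2. Ogdh was the 1 gene whose groups did not overlap, against 20.0% of all amplicons, at 3179, 3189, 3271 and 3538 CPM in the knockout and 3148, 3086 and 2732 CPM in wild type hearts 80, 81 and 83 (log2 change 0.14 ± 0.087 (SE), adjusted p = 0.34). Idh3a was 616, 593 and 576 CPM in these wild type hearts, overlapping the knockout (log2 change 0.058 ± 0.066 (SE), adjusted p = 0.65). The table covariate called Idh3g lower (-0.29, adjusted p = 0.043).

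Around the cycle, Ogdhl, a paralogue of Ogdh, rose 1.33-fold (adjusted p = 0.028), against 5.37% of all amplicons that rose. The call held under 9 of 17 alternatives and was lost without hearts 27 and 37. Of 12 pyruvate entry genes 4 rose and 1 fell. Among them Pdhb rose 1.65-fold (1.6e-05, all 17 alternatives), and the shuttle gene Got1 rose 1.38-fold (0.0017, 16 of 17).

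For the knockout ND6 against wild type under the Ant1 vector, 0 of 9 genes passed in edgeR, with 19.5% of all amplicons called (8.71% lower). Fh1 alone had an unadjusted p under 0.05, and DESeq2 called 1 gene, Fh1 (0.031). Fh1 was 490.1, 430.3 and 446 CPM in hearts 5, 8 and 37 and 689, 541 and 499 CPM in wild type hearts 80, 81 and 83. It was the 1 gene of 9 without overlap, against 34.1% of all amplicons, though the highest knockout ND6 heart and the lowest wild type heart were close. The value was 1.26-fold lower (log2 change -0.34 ± 0.12 (SE), adjusted p = 0.054), near that under the control vector (-0.36), and no table set holds both groups. RLE (0.049) and upper quartile factors (0.037), the table covariate (0.0018), leaving out wild type heart 83 (0.032) and either placing of hearts 61 and 91 (0.041 and 0.037) moved it past the threshold. The value was -0.19 (0.32) without wild type heart 80 and -0.30 (0.15) without heart 8.

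Idh3g was 1102, 1113 and 1437 CPM in hearts 5, 8 and 37 and 1469, 1327 and 1366 CPM in the wild type hearts (log2 change -0.19 ± 0.13 (SE), adjusted p = 0.36). Heart 37 alone overlapped the wild type. Without hearts 27 and 37 Idh3g passed (-0.34, adjusted p = 0.023), as it did with the table covariate (-0.50, 0.0010). Around the cycle Ogdhl rose 1.34-fold (0.020), against 10.8% of all amplicons that rose. Of pyruvate entry 5 of 12 rose and 2 fell, with Pdhb at 1.70-fold (9.3e-06), Pdhx at 1.85-fold (9.3e-05) and Dlat at 1.59-fold (5.8e-05). Oxct1, which lets ketone bodies enter the cycle as acetyl-CoA, rose 1.47-fold (0.00011). Ogdhl held under 13 of 19 alternatives, and Pdhb, Pdhx and Oxct1 under all 19. Of 8 fibroblast markers 2 fell and 2 rose. Of 6 endothelial markers 2 rose and 1 fell (576 to 685 CPM against 483 to 571 CPM). Of 4 skeletal muscle markers 3 rose. They were Ckm, also a cardiomyocyte marker, whose mean was 906 against 496 CPM, and Myh1 (2.70 ± 4.56 CPM, SD, n = 3) and Tnnt3 (7.47 ± 9.54 CPM, SD, n = 3), whose SD exceeded the mean in the knockout ND6 hearts. Of 4 atrial markers 2 fell (1275 to 4529 CPM against 4803 to 5322 CPM), with none at 0. Of 11 cardiomyocyte markers 3 rose and 2 fell. One of 6 macrophage markers tested and 1 of 5 adipocyte markers fell, and 1 of 5 smooth muscle and pericyte markers rose. The part of cell mixture in these values was not tested.

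Between knockout ND6 and knockout hearts with the Ant1 vector, 0 of 9 genes passed in edgeR, 0 had an unadjusted p under 0.05 and DESeq2 called 0, with 1.66% of all amplicons called (1.07% higher). No gene had groups without overlap, against 11.0% of all amplicons. Without heart 8 edgeR again called 0. The largest value was that of Fh1 (-0.20, 95% interval -0.43 to 0.040). The table covariate called Fh1 (-0.27, 0.0076), Idh3g (-0.21, 0.017) and Idh3b (-0.18, 0.017) lower.

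The repeat libraries show how far single values of these genes can be trusted. Leaving hearts 27 and 37 aside, repeat libraries of a heart differed with an SD of 0.055 to 0.14 on the log2 scale over the 9 genes. With them the SD of Sucla2 went from 0.081 to 0.30 and that of Idh3a from 0.083 to 0.21. In heart 27 the 4 libraries of one table averaged 736 CPM for Sucla2 and the 4 of the other 384 CPM, and in heart 37 they averaged 763 and 407 CPM. Idh3a was split the same way, 828 against 451 CPM in heart 27 and 782 against 491 CPM in heart 37.

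Ogdh ran the other way, 2458 against 4424 CPM in heart 27 and 3043 against 4148 CPM in heart 37. Fh1 in heart 27 was nearly the same in both, 534 and 546 CPM, and in heart 37 it was 383 and 519 CPM. Among the other 19 hearts with libraries in more than 1 table the largest ratio between table means of any of the 9 genes was 1.33. The summed values of hearts 27 and 37 are thus averages of readings that disagree, and the genotype calls under the control vector (Ogdh and Idh3a in the knockout, Fh1 in the knockout ND6) have neither heart in their groups, though both enter the spread estimated over all groups.

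**Figure D5:**
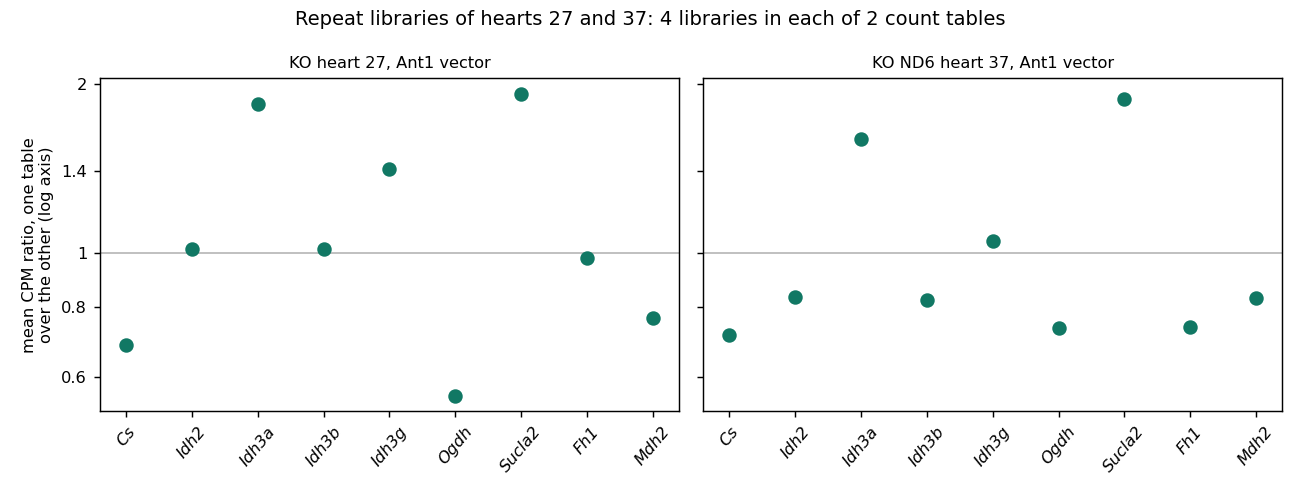
Ratio of mean CPM between the 2 count tables that hold the repeat libraries of hearts 27 and 37 (4 libraries in each, log axis; 1 means equal readings), for the 9 genes. Sucla2 and Idh3a read 1.59 to 1.92 times as high in one table as in the other and Ogdh 0.556 and 0.734 times as high, in both hearts.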

How the data were processed

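The authors deposited raw read counts per amplicon from Ion AmpliSeq libraries run on an Ion Torrent S5, per the labels' protocols; the build is mm10, per the submitters' processing notes, with aligner and counter not given in the sources used here. Libraries with the same title number, genotype and code were summed as 1 heart, an interpretation of the titles. Libraries 80a and 80b, whose labels conflict, were left out, as were 3 single-nucleus samples, which were not analysed here. All 7 groups were fitted together with edgeR 4.0.16 under R 4.3.3, using filterByExpr, TMM scaling (factors 0.959 to 1.06), the quasi-likelihood F-test and Benjamini-Hochberg adjustment over 15403 amplicons. Values in CPM use TMM-scaled totals, and log2 CPM a prior count of 2. Repeat libraries were compared in CPM of their own totals. Alternatives used DESeq2 1.42.0, limma 3.58.1 (voom with the library table as covariate and the heart as block), other scaling, filters and sets of hearts. The edgeR test was tried on simulated counts with known changes, for knockout against wild type under the control vector. It recovered 50 of 50 changes of 4-fold and 47 of 50 of 2-fold. At 1.5-fold it recovered 20 of 50, and at 1.25-fold 1 of 50. The simulation gave every amplicon the same dispersion, so these shares need not hold for the 9 genes. Their SE in this comparison was 0.066 to 0.13, and Idh3a was called at 1.21-fold. A missing call for a change near 1.25-fold is still not evidence that the gene was unchanged. No label states that numbers are separate animals, so p-values measure the spread between these samples, which may be technical. From the lists, up to 4 called genes per comparison with the smallest adjusted p could be named, and the text gives part of them. The members and lists were chosen with earlier results of these data known. The result of 1 other cycle gene is not reported here.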

Additional observations from a re-analysis of the deposited data

Results flagged for a closer look

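In knockout heart 27 with the Ant1 vector, Idh3g was 1725 CPM, above hearts 20, 21 and 22 at 1139, 1205 and 1209 CPM, a gap of 0.880 of the group's whole range. In the same heart Idh2 was 2787 CPM, below the other 3 hearts at 3017, 3052 and 3025 CPM, a gap of 0.867 of the range. Both exceeded Dixon's 95% limit for groups of 4, which chance passes in about 1 group of 20, and 22 groups were looked at. The repeat libraries of heart 27 gave Idh3g means of 2096 and 1485 CPM in its 2 tables, both above the other 3 hearts, and Idh2 means of 2863 and 2823 CPM.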

How the results depend on the processing

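Over 99 changes of the 9 genes and 33 other settings, 1781 of 1818 values stayed on their side of the threshold. A call was lost in 17 values and gained in 20, and 0 reversed with a call in either setting. Most of the 1818 values belong to changes without a call, and some of these changed sign. The calls themselves were less stable. In knockout against wild type (control vector), Ogdh kept its call under 15 of 15 alternatives and Idh3a under 12 of 15. Fh1 in knockout ND6 against wild type (control vector) kept it under 11 of 17. Idh3a for the Ant1 vector in the knockout kept it under 8 of 16. Counts of called genes moved as follows. With 2 libraries per heart there was 1 for the knockout and 0 for the knockout ND6 against wild type (control vector), and 0 for the Ant1 vector in the knockout. With only the compared groups fitted the first was 1 and the last 0, and without a filter on low counts the last was 0. For the knockout ND6 against the knockout (control vector), DESeq2 and hearts 61 and 91 as control hearts each gave 1. For the knockout ND6 against wild type (Ant1 vector), RLE and upper quartile factors, DESeq2, either placing of hearts 61 and 91, and leaving out hearts 27 and 37 each gave 1. The library table as a covariate gave 3 for the knockout and 2 for the knockout ND6 against wild type and 3 against the knockout (control vector), and under the Ant1 vector 1 for knockout against wild type, 2 for knockout ND6 against wild type and 3 against the knockout. It also turned the sign of the citrate carrier Slc25a1 in knockout against wild type (Ant1 vector), to -0.14.

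Leaving out each heart gave 1 to 2 called genes for knockout against wild type and 0 to 1 for knockout ND6 against wild type (control vector), 0 to 1 for the Ant1 vector in the knockout and 0 to 1 for knockout ND6 against wild type (Ant1 vector). Of 2143 values for 124 calls of list genes 1649 kept the call, 493 lost it and 1 changed sign. Sex as a covariate could not be fitted because all hearts read as male. The table covariate could not be estimated for the vector comparisons. No paired analysis was possible because the compared groups share no heart numbers. Counts of at least 10470 reads per heart and gene left counting error small beside the spread between hearts.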
